A study of Mus musculus with 2 samples.

Results

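miR-378a is a microRNA (miRNA) hairpin that lies inside the gene Ppargc1b, and its products were measured here in mouse liver. Every listed miRNA whose name begins with miR-378 was taken as a member. Of 197 named miRNAs listed over both libraries, 2 met this rule, mmu-miR-378a-3p and mmu-miR-378a-5p (mmu for mouse), and both were listed in each library. They are the 3′ and the 5′ arm of 1 hairpin and so share their source.

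The study sequenced small RNA from liver. The mice were wild-type C57BL/6, an inbred laboratory strain, aged 2 to 3 months and fed ad libitum. There was 1 group of 2 libraries, named control replicates 1 and 2, and no other group was analysed here. The series title sets them in work on miRNAs that act on metabolic master regulators. The labels do not say whether each library came from a separate animal or from pooled animals, so SDs measure the spread between these libraries only, which could be technical in origin.

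A miRNA is cut from a hairpin precursor, first in the nucleus by Drosha and then in the cytoplasm by Dicer. This leaves a duplex of the 5p and 3p arms, of which usually 1 is kept by an Argonaute protein while the other is degraded. Ppargc1b encodes PGC-1β, a transcriptional coactivator of nuclear receptors that promotes mitochondrial and lipid metabolism genes. miR-378a is made from its primary transcript and is known from mouse work as a regulator of mitochondrial and fatty acid metabolism in liver, muscle and fat, with Crat and Med13 among its reported targets. These libraries hold small RNAs, and the mRNA of Ppargc1b was not measured.

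The named miRNAs held 306351 counts in replicate 1, over 165 names, and 538023 in replicate 2, over 183 names. Markers of hepatocytes, the main cell type of liver, were present, with 4 and 5 of 7 listed and a summed level of 4.79% and 5.12% of named miRNA counts. The marker listed in replicate 2 only, miR-802-5p, had 5 counts. None of the 7 markers of muscle and heart, tissues also known for miR-378a, was listed in either library. The file lists called loci only, so this sets no upper limit on them. The other marker lists took 0.341% and 0.212% (immune, 2 of 6 listed in each), 0.0444% and 0.0355% (endothelial, 2 of 2 in each) and 0.554% and 0.342% (stellate and mesenchymal, 3 and 4 of 5). Of 4 erythroid markers none was listed in replicate 1 and 1 in replicate 2, with 14 counts. In bulk tissue, fewer cells of a type and less RNA per cell cannot be told apart.

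The locus was examined first. The Mir378a hairpin lay on the minus strand of chromosome 18 of GRCm38, from 61397835 to 61397900, a length of 66 bases. Ppargc1b lay on the same strand, from 61298136 to 61400431. GENCODE M21 gave 3 transcripts of Ppargc1b, and in each of them the hairpin was in intron 1. Between exon 1 and the hairpin lay 2389 bases. Intron 1 measured 17766 bases in the protein-coding transcript Ppargc1b-201 and 76981 in the protein-coding Ppargc1b-202, so that 13.4% and 3.10% of it came before the hairpin. In the short non-coding transcript Ppargc1b-203 the intron measured 10203 bases, and 23.4% of it came before the hairpin. The files annotated both arms as exonic for Mir378a and intronic for Ppargc1b, and listed no other locus in Ppargc1b.

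**Figure D1:**
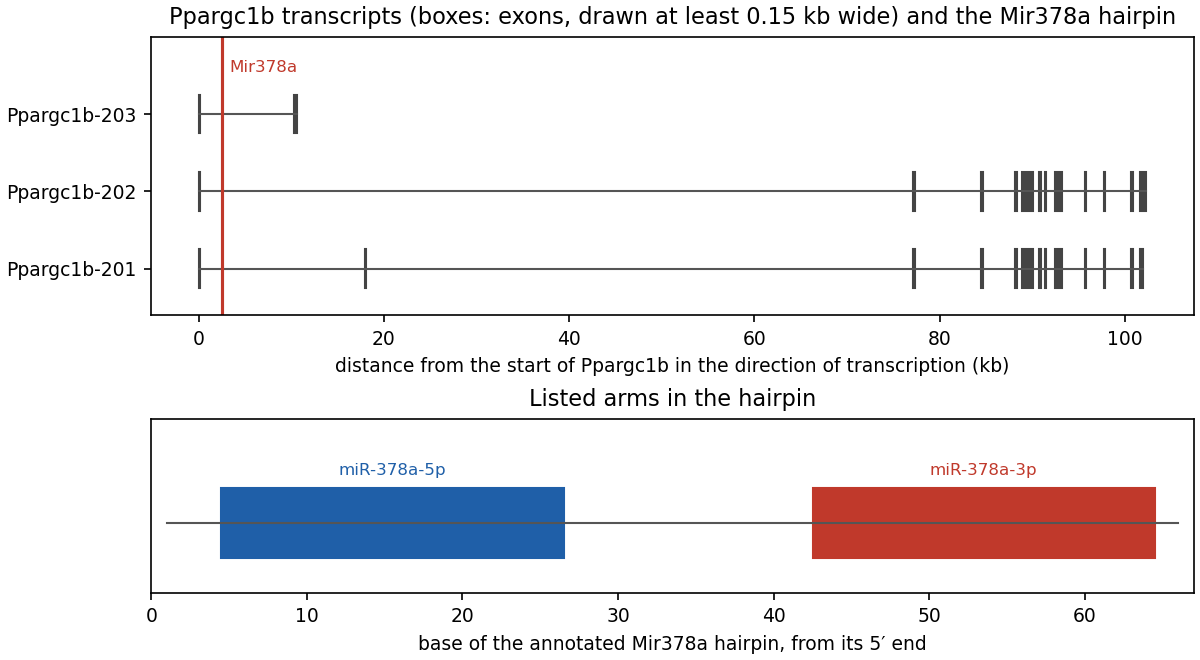
Top, the 3 annotated transcripts of Ppargc1b, with exons as boxes and the Mir378a hairpin as a red line, against the distance in kb from the start of the gene. Bottom, the listed arms within the 66 bases of the hairpin, where the 5p arm takes bases 5 to 26 and the 3p arm bases 43 to 64.

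The mature ends were the same in both libraries. miR-378a-3p was listed at chromosome 18, 61397837 to 61397858, and miR-378a-5p at 61397875 to 61397896, each with a length of 22 bases. Counted from the 5′ end of the annotated hairpin, the 5p arm covered bases 5 to 26 and the 3p arm bases 43 to 64, with 16 bases between them. Among 150 miRNAs listed in both libraries at the same locus, 143 (95.3%) had the same 5′ end in each, 126 (84.0%) the same 3′ end and 122 (81.3%) both, so identical ends were the usual case.

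In the structure deposited with the 3p arm, 18 base pairs joined the arms. Each arm reached 2 bases past its partner at its 3′ end, the overhang that Drosha and Dicer leave. The G+C content was 54.5% for the 3p arm and 59.1% for the 5p arm.

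The level of each arm was taken as its share of named miRNA counts. mmu-miR-378a-3p had 6062 counts in replicate 1, or 1.98% (exact Clopper-Pearson 95% interval 1.93 to 2.03), and 13560 in replicate 2, or 2.52% (2.48 to 2.56). The intervals do not overlap, and they cover counting error only, as reads without molecular identifiers are not independent molecules. Its mean was 2.25% ± 0.383 (SD, n = 2). It ranked 12 of 165 names in replicate 1 and 9 of 183 in replicate 2.

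mmu-miR-378a-5p was far lower. It had 158 counts in replicate 1, or 0.0516% (95% interval 0.0438 to 0.0603), and 288 in replicate 2, or 0.0535% (0.0475 to 0.0601). These intervals overlap, and the mean was 0.0526% ± 0.00138 (SD, n = 2). It ranked 60 of 165 and 58 of 183. The plot of share by rank shows both arms at nearly the same place in each library, the 3p arm among the most counted miRNAs.

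**Figure D2:**
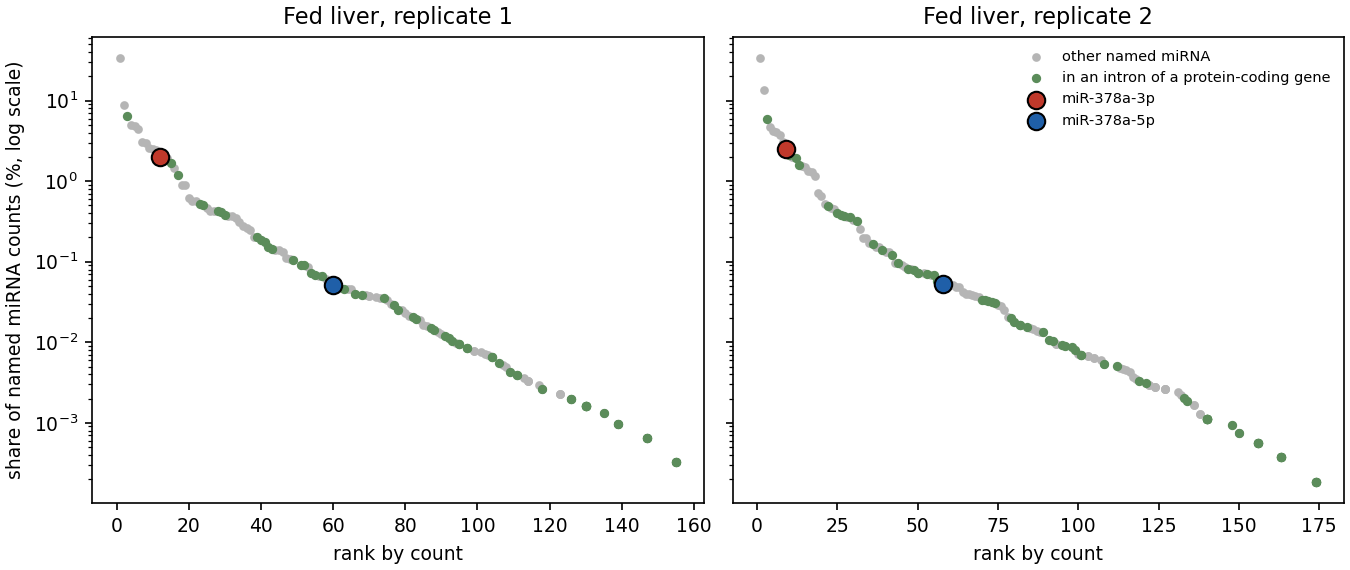
Share of named miRNA counts (percent, log scale) against rank by count in each library, 1 point per miRNA, with those in introns of protein-coding genes in green. miR-378a-3p (red) lies at rank 12 and 9 and miR-378a-5p (blue) at rank 60 and 58.

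In order of mean share over the 151 miRNAs listed in both libraries, miR-378a-3p was number 10. The 3 directly above it were miR-181a-5p (3.63% ± 0.741), miR-122-5p (2.77% ± 0.380), the hepatocyte miRNA, and let-7c-5p (2.47% ± 0.678). The 3 directly below were miR-423-5p (2.05% ± 0.116), let-7a-5p (2.02% ± 0.759) and let-7b-5p (1.99% ± 0.617). With SDs of this size, the order of miR-378a-3p against let-7c-5p, miR-423-5p, let-7a-5p and let-7b-5p was not settled, since each mean differed from its own by less than the larger of the SDs.

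The order did change between the libraries. In replicate 1, let-7c-5p with 9041 counts, let-7a-5p with 7834 and let-7b-5p with 7419 all stood above miR-378a-3p. In replicate 2 they had 10720, 7981 and 8334 counts and all stood below it. miR-122-5p stood above miR-378a-3p in both, with 7668 and 16356 counts, and miR-423-5p below it in both, with 6032 and 11477.

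miR-378a-5p was number 59 in the same order. Above it came miR-23a-3p (0.0573% ± 0.0127), miR-127-3p (0.0571% ± 0.0165), an imprinted miRNA, and miR-130a-3p (0.0549% ± 0.00909). Below it came miR-222-3p (0.04996% ± 0.0115), miR-1948-3p (0.0487% ± 0.0278) and miR-181c-5p (0.0446% ± 0.00950). All 6 means lay within their own SD of that of the 5p arm.

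Likeness of pattern was measured as the distance between 2 miRNAs in log2(CPM + 1) over the 2 libraries, where CPM is the count scaled to the library size. The miRNAs nearest to miR-378a-3p were miR-423-5p at 0.24, miR-122-5p at 0.43, miR-27b-3p at 0.44, let-7c-5p at 0.67 and let-7b-5p at 0.76. Of these, miR-423-5p and miR-27b-3p were also annotated in introns, of Nsrp1 and of 2010111I01Rik. Nearest to miR-378a-5p were miR-130a-3p at 0.29, miR-676-3p at 0.36, miR-23a-3p at 0.39, miR-222-3p at 0.39 and miR-127-3p at 0.41. With 2 libraries this measure mostly reads the level.

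Among miRNAs in introns of protein-coding genes, as the files annotate them, miR-378a-3p was the second most counted in each library. The intronic miRNAs numbered 62 in 35 host genes in replicate 1 and 68 in 37 host genes in replicate 2, and took 17.6% ± 0.470 of named counts (SD, n = 2). Only miR-26a-5p, listed in Ctdspl, was higher (6.19% ± 0.309). After miR-378a-3p came miR-423-5p in Nsrp1, miR-27b-3p in 2010111I01Rik (1.81% ± 0.206) and miR-151-3p in Ptk2 (1.38% ± 0.279). Both arms of miR-378a made up 11.8% of intronic counts in replicate 1 and 14.4% in replicate 2, a mean of 13.1% ± 1.84. miR-378a-5p ranked 22 and 23 among the intronic miRNAs.

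The libraries were then compared with each other, which compares 2 libraries and not conditions. Of the 2 arms, only miR-378a-3p passed the test, and it was higher in replicate 2. Over all 131 miRNAs tested, 44.3% passed in either direction 21.4% being higher in replicate 2 and 22.9% lower, so a call of this kind was common. The log2 ratio of replicate 2 to replicate 1 was 0.51 for miR-378a-3p, a fold of 1.43 (2-sided exact binomial test at TMM library sizes, Benjamini-Hochberg adjusted p = 2.36e-120). For miR-378a-5p it was 0.22, a fold of 1.16 (same exact test, adjusted p = 0.241). A total of 41 tested miRNAs had a larger absolute log2 ratio than miR-378a-3p, and 82 a larger one than miR-378a-5p. These numbers include miRNAs with few counts, whose ratios are less exact.

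The exact test counts only sampling of reads, and the spread between libraries was wider. The common biological coefficient of variation by edgeR was 0.229, which corresponds to an SD of about 0.47 for a log2 ratio of 2 libraries. The observed log2 ratios of the 131 tested miRNAs had an SD of 0.68. The log2 ratio of miR-378a-3p was close to 0.47 and under 0.68, and that of miR-378a-5p was under both. The SD of 0.68 includes miRNAs with few counts, such as miR-1843a-3p with 29 and 3 counts and a log2 ratio of -3.67. It is therefore not a measure of the spread at the level of miR-378a-3p. With unlisted miRNAs as 0 the coefficient was 0.722. Among the 30 tested miRNAs with at least 1000 counts in each library, 24 passed the same exact test (80.0%). Of these abundant miRNAs, only miR-92a-3p (0.76), let-7a-5p (-0.62), miR-181a-5p (0.58) and miR-151-3p (0.58) had a larger absolute log2 ratio than miR-378a-3p. Its ratio was thus among the larger ones at its level.

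The scaling mattered for the size of the ratios. TMM set the effective library size of replicate 2 at 1.57 times that of replicate 1, against 1.76 for the named totals. With library totals, the median log2 ratio over the tested miRNAs was -0.19 in place of -0.02, and 19 were called higher and 45 lower, in place of 28 and 30. The log2 ratio of miR-378a-3p was then 0.35 and still passed, and that of miR-378a-5p was 0.05. A change of scaling shifts every log2 ratio by the same amount.

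**Figure D3:**
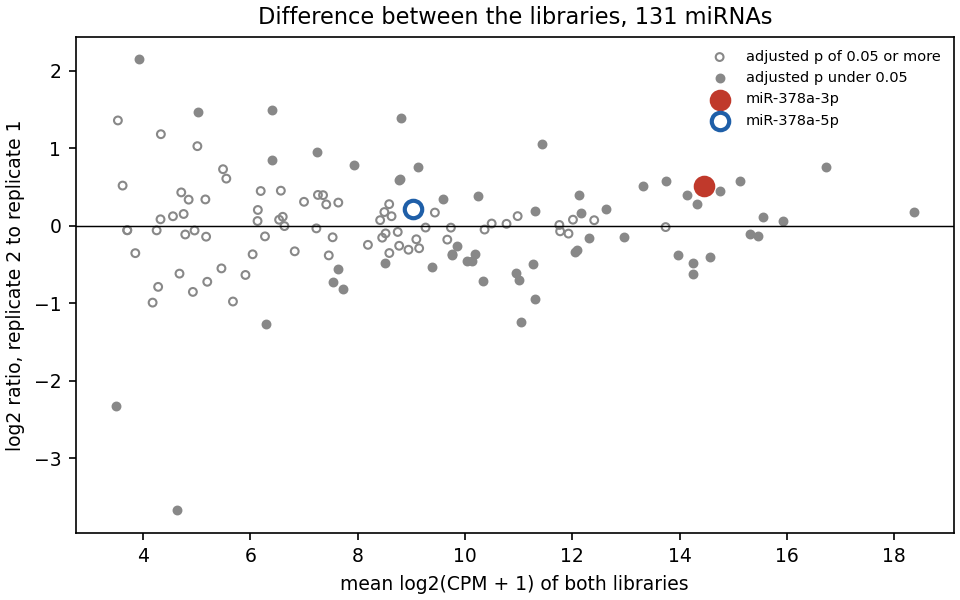
Log2 ratio of replicate 2 to replicate 1 against mean log2(CPM + 1) for the 131 tested miRNAs, filled where the adjusted p is under 0.05. miR-378a-3p (red, filled) lies at 0.51 and miR-378a-5p (blue, open) at 0.22.

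Fixed lists of miRNAs, each with miR-378a in it, give the setting of these values. A list of 29 miRNA names chosen for introns of host genes, several of them metabolic, had 22 listed, with 28 arms tested. The test called 7 of these arms higher in replicate 2 and 5 lower, and 16 did not pass. The share past the test was 42.9%, near the 44.3% over all tested miRNAs. Their median log2 ratio was 0.03, against -0.02 over all tested miRNAs. With library totals, 5 were higher and 10 lower, and the median was -0.14. miR-378a-3p ranked 2 in level on this list, after miR-26a-5p. Below miR-27b-3p and miR-151-3p followed miR-30c-5p (0.799% ± 0.122) and miR-26b-5p (0.442% ± 0.104). At the most counted locus of each name, the files placed 6 of the 37 listed arms outside introns of protein-coding genes. These were miR-30c-5p, miR-30c-2-3p, miR-24-3p, miR-24-2-5p, miR-25-3p and miR-93-5p. Replicate 1 also listed miR-30c-5p at Mir30c-1, a hairpin whose 3p arm was annotated in an intron of Nfyc.

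A list of 24 names with reported roles in hepatic lipid, glucose or energy metabolism had 17 listed, with 21 arms tested. Here the test called 7 arms higher in replicate 2 and 1 lower, and 13 did not pass. The share past the test was 38.1%, against 44.3% over all tested miRNAs, of which 21.4% were higher and 22.9% lower. The median log2 ratio was 0.12. With library totals, 4 were higher and 3 lower, and the median was -0.04. miR-378a-3p ranked 4 in level, after miR-22-3p (33.8% ± 0.241), miR-26a-5p and miR-122-5p. Among the most abundant members, miR-122-5p (log2 ratio 0.44) and miR-27b-3p (0.40) were called higher with values near that of miR-378a-3p. The ratios of miR-22-3p (0.18) and miR-26a-5p (0.06) were smaller, and with library totals that of miR-26a-5p lay below 0. The lists share miRNAs, miR-378a included.

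The last question was how the counts of the hairpin divided between its arms. The 3p arm held 97.5% and 97.9% of Mir378a counts in replicates 1 and 2. Counts on 5p made up 2.54% of 6220 counts (95% interval 2.16 to 2.96) and 2.08% of 13848 counts (1.85 to 2.33), a mean of 2.31% ± 0.326 (SD, n = 2). In read counts, the 3p arm exceeded the 5p arm 38.4-fold in replicate 1 and 47.1-fold in replicate 2. Whether the library preparation captured different sequences equally was not tested, so these are ratios of counts and not of molecules. A dominant 3p arm was found in both libraries in 51.1% of the 47 hairpins tested (exact binomial test against equal arms, adjusted within each library), Mir378a among them.

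Among the hairpins tested, the skew of Mir378a was in the middle of the range. Hairpins without both arms listed in both libraries were left out, and these can include strongly skewed ones. For example, miR-320-3p (855 and 823 counts) and miR-221-3p (424 and 486) had no listed 5p arm. The place of Mir378a among all 3p-dominated hairpins was therefore not tested. Of the 24 hairpins dominated by 3p, 11 had a lower mean 5p share and 12 a higher one. The hairpins directly below it were Mir676 (0.813% ± 0.243), Mir331 (1.49% ± 0.792) and Mir143 (1.60% ± 0.704). Those directly above were Mir140 (2.61% ± 1.45), Mir200b (3.28% ± 2.09) and Mir203 (5.25% ± 2.86). The 95% intervals of all 6 overlapped those of Mir378a in both libraries, and these hairpins had fewer counts, so their order was not settled at this depth.

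The lesser arm of Mir378a was among the more counted of its kind. The hairpin was also number 6 of the 47 in total counts. As a share of its own hairpin, its lesser arm was number 27 of the 47, counted from the lowest. Ordered by mean share, miR-378a-5p was the third of the 47 lesser arms, after let-7d-5p and miR-151-5p. Its share stood above that of the dominant arm in 19 of the 47 hairpins. The median over these 47 lesser arms, all of them listed in both libraries, was 0.00137%.

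The 5p share of Mir378a differed by -0.46 percentage points, replicate 2 minus replicate 1, which did not pass the adjusted test. Fisher's 2-sided exact test gave p = 0.0434 and an adjusted p of 0.255 over the 47 hairpins. The odds ratio of 5p against 3p counts, replicate 1 to replicate 2, was 1.23 (95% interval 1.002 to 1.499). Over all hairpins 4, or 8.51%, passed. The higher log2 ratio of the 3p arm than of the 5p arm is the same comparison, so a difference between the arms was not shown.

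**Figure D4:**
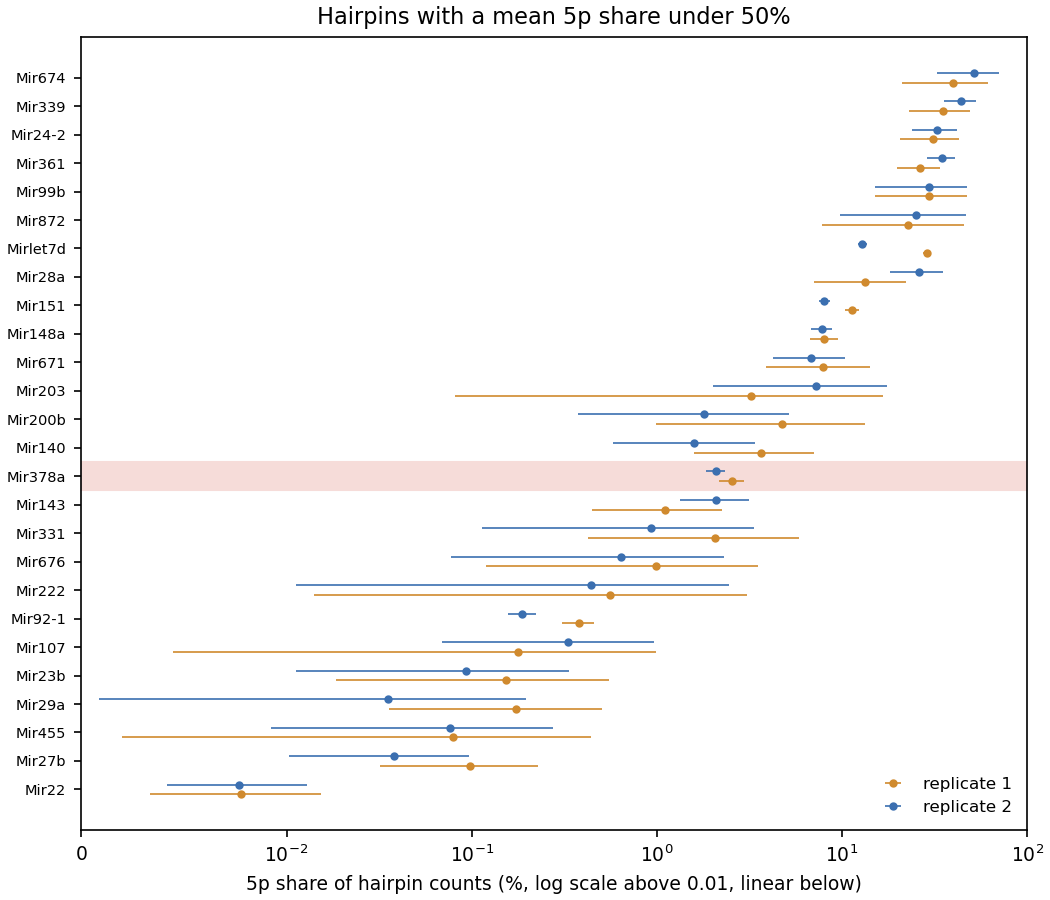
5p share of hairpin counts (percent, log scale above 0.01) for the tested hairpins with a mean 5p share under 50%, with exact 95% intervals, in order of the mean. Mir378a (shaded) stands at 2.54% in replicate 1 (orange) and 2.08% in replicate 2 (blue), near the middle of those shown. Hairpins without both arms listed in both libraries are left out.

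Other copies of miR-378 were looked for last. GENCODE M21 annotated 4 mouse Mir378 genes, and only Mir378a was listed in either library. Mir378b lies on chromosome 11, 88352773 to 88352864, plus strand. Mir378c lies on chromosome 14, 46954830 to 46954928, and Mir378d on chromosome 10, 126710282 to 126710391, both on the minus strand. RefSeq's mature sequences for GRCm38.p6 were compared with the listed 3p arm. miR-378c starts at the same base and shares a run of 20 of its 21 bases. miR-378b starts 1 base later and shares 19 of its 20. miR-378d matches 20 of its 22, with 2 mismatches.

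Of these copies only miR-378c has the same seed (bases 2 to 8, which pair with targets) as miR-378a-3p. No other listed miRNA had the seed of either arm. A read that lies within the run shared with a copy, 20 bases for miR-378c, 19 for miR-378b and 15 for miR-378d, cannot be told apart from miR-378a-3p, so its level may include some.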

How the data were processed

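Per the labels' protocols, TruSeq small RNA libraries (Illumina) were made from 1 µg of total RNA. Bowtie 1.0.1, cutadapt 1.5, FastQC 0.11.2 and GRCm38 (mm10) are named in the submitters' processing notes. The locus caller and its treatment of reads with several matches were not given in the sources used here. Each deposited file holds raw read counts, in whole numbers, for the loci called in that library, with positions that were raised by 1. They listed 200 and 220 loci. The 32 and 33 loci without a miRNA name held 5.02% and 2.46% of counts and were left out of totals and tests.

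Where a name had several loci, the most counted was used. A miRNA not listed in a library was treated as missing. Libraries were compared by exact binomial tests at TMM sizes (edgeR 4.0.16) for miRNAs listed in both with at least 10 counts summed and a prior count of 0.5. Hairpins needed both arms and at least 20 counts in each library. P-values were adjusted over all features, with a threshold of 0.05. No quasi-likelihood test was possible with 1 group. DESeq2 1.42.0 size factors were an alternative. The tests were also run on simulated counts that held counting error only. This cannot show how they behave with the wider spread between these libraries.

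Besides the members, the miRNAs named are the 3 on either side of each arm in mean share, the 5 nearest in log2(CPM + 1), the hairpins on either side in 5p share, and the most abundant members of the lists. The other intronic miRNAs, the leading lesser arms and the lack of muscle markers were singled out after their values were seen. The members and lists were chosen with earlier results of these data known. Annotation was GENCODE M21, on the same build. Apart from 1 substitution, no sequence of a chromosome 18 locus is reported here.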

Additional observations from a re-analysis of the deposited data

How the results depend on the processing

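Apart from leaving out a library, 27 of 30 alternatives counted as unchanged. Several of these could hardly change. The prior count does not enter the p-value. The hairpin filters and the summing of loci leave the 5p share of Mir378a as it is, and can alter only the adjusted p. With unlisted miRNAs as 0, the TMM sizes and both log2 ratios stayed as reported. The count of unchanged alternatives therefore overstates how far the results were put to the test. Differences between libraries had to keep the direction and the side of the threshold. Levels and the 5p share had to stay within the SD between replicates. The number of differing miRNAs had to stay within a set ratio of the reported 58. Leaving the most counted miRNA out of the total moved the level of miR-378a-3p to 3.40% and that of miR-378a-5p to 0.0793%. Counting all listed loci in the total moved miR-378a-5p to 0.0504%. These settings change the denominator. From 1 library alone, the level ranged from 1.98% to 2.52% for miR-378a-3p and from 0.0516% to 0.0535% for miR-378a-5p, and the 5p share of the hairpin from 2.08% to 2.54%. Over all settings of scaling, filter, prior count and unlisted miRNAs, the log2 ratio between libraries ranged from 0.35 to 0.56 for miR-378a-3p (exact binomial test, adjusted p from 1.62e-145 to 1.00e-55) and from 0.05 to 0.27 for miR-378a-5p (adjusted p from 0.1098 to 0.847). The adjusted p of the arm difference ranged from 0.253 to 0.271. The count of differing miRNAs ranged from 55 to 76. No paired analysis was possible because there is 1 group. With 2 libraries, and listed loci in place of sequenced reads as the total, levels are relative and their error is known only roughly.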

Other observations

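The hairpin sequence deposited for Mir378a differed from the GENCODE M21 precursor at 1 base, and the base was not the same in the libraries. Counted from the 5′ end of the annotated hairpin in RNA letters, with the reference base first, the difference was G27U in replicate 1 and G27A in replicate 2. This is chromosome 18, position 61397874, which is the first base after the listed end of miR-378a-5p and 16 bases before the start of miR-378a-3p. Both mature arms matched the precursor at all bases in both libraries.

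Such differences were common in the files. Of the hairpins compared, 82 of 107 in replicate 1 (76.6%) and 93 of 120 in replicate 2 (77.5%) held at least 1. Where the 5p arm was listed, 122 of 137 differing bases in replicate 1 (89.1%) and 126 of 149 in replicate 2 (84.6%) lay 1 to 6 bases past its end. The first base past the 5p end differed in 37 of 88 hairpins (42.05%) in replicate 1 and in 41 of 99 (41.4%) in replicate 2. The sources used here do not say how the hairpin sequences were written, and the cause was not tested. The structures deposited with the hairpin rest on these bases: with the 3p arm, 22 base pairs were drawn in replicate 1 and 24 in replicate 2, and the added pairs lie outside those that join the arms, which numbered 18 in both.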
